A study of Mus musculus with 20 samples.

Results

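The accessible sites of mouse chromosome 1 were described across 10 CTCF genotypes of embryonic stem cells. The members were all peaks that the 10 deposited peak lists hold on chromosome 1 of build mm10, merged into 1 region wherever peaks of any lists overlapped by at least 1 bp. This gave 15640 chromosome 1 regions of 222457 regions on all chromosomes. Presence in the peak lists chose the members, so presence and the values in those lists are given as a description, without a test.

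The cells were E14Tg2a mouse embryonic stem cells of strain 129/Ola, carrying a degron by which indole-3-acetic acid (IAA, an auxin) removes the endogenous CTCF protein, and each line also carried a doxycycline-inducible Ctcf transgene. All 20 samples, the WT controls included, were treated with 500 µM IAA and 1 µg/ml doxycycline, so the transgene was the intended source of CTCF, and the treatment lasted 2 days. The 10 genotypes had 2 replicates each and were named by their transgene: WT, R339Q, R342C, S354F, K365T, R377C, R377H, Q418R, R448Q and H455R. Each was a stably modified line. The sources used here do not say whether a line was 1 clone or whether its replicates were separate cultures.

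CTCF is a DNA-binding protein with a row of zinc fingers that read its motif, and it stops cohesin to fix the ends of chromatin loops. Omni-ATAC-seq, the assay used, inserts sequencing adapters with a transposase wherever DNA is accessible, so that promoters, enhancers and CTCF-bound sites appear as peaks. From general knowledge of the protein, K365 lies in the fourth zinc finger and R448 in the seventh. The study asks what happens to accessible chromatin when the CTCF of a cell carries one of these substitutions.

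The authors deposited 1 peak list per genotype that pooled both replicates, and the spread between replicates could therefore not be measured. Lists held 121032 to 171719 peaks. Background coverage, a measure of depth computed from the steps between the deposited fold values, was lowest in K365T at 3.49, was 5.45 in R448Q and was highest in WT at 5.96. The library codes inside the peak names lay 42 numbers apart in K365T and 28 in WT, and 1 apart in the other 8 lists. What depth and library origin contribute to the differences below was not tested. In these bulk samples, a site open in more cells and a site more open per cell cannot be told apart. Among marker genes of any chromosome, 7 of 8 embryonic stem cell markers had a peak at a gene end in all 10 lists, including Pou5f1, Nanog and Sox2, and Nr5a2 had one in R342C only. Of 8 fibroblast markers 5 had such a peak in all 10 lists, and of 4 blood markers 1 had (Cd34), while Cd28, Cd48 and Ptprc had none in any list. Each list held such peaks at 7 or 8 stem cell markers, 5 to 7 fibroblast markers and 1 blood marker. Over all chromosomes, 65.5% of protein-coding genes had such a peak in all 10 lists. Strength varied within both classes. As a mean percentile of fold value within a list, Pou5f1 was at 17.7 and Zfp42 at 89.6. Among the fibroblast markers Col1a1 was at 82.5 and Pdgfrb at 23.9.

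Sequences were available for 300-base windows around annotated start sites (RefSeq, GRCm38.p6, which shares its chromosomes with mm10), and 2014 of these windows lie on chromosome 1. The windows printed were picked after their values were seen. In 4 of them a peak was found in K365T and R448Q and in no other list, and they are shown because they are start sites at which the pair with the raised chromosome 1 share stood alone. The 250 bases before each start site are printed 5′ to 3′ in the direction of transcription, with CG dinucleotides in capitals.
Dnah7c, chr1:46425268-46425517, plus strand: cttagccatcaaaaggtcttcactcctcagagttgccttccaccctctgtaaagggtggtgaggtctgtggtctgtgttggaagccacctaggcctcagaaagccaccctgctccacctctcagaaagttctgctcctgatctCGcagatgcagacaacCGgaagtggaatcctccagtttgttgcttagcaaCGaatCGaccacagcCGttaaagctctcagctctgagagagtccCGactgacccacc
Gm28178, chr1:52580293-52580542, minus strand: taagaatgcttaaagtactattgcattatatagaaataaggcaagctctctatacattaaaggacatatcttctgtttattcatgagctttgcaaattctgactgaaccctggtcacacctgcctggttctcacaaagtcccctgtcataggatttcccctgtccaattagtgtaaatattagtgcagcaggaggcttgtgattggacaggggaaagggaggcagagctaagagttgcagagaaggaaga
Akr1cl, chr1:65032760-65033009, minus strand: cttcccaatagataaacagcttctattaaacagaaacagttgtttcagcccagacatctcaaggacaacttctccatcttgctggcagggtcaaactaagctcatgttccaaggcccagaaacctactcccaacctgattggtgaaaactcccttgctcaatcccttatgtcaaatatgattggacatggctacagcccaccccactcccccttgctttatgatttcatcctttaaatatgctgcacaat
4930503O07Rik, chr1:194222760-194223009, minus strand: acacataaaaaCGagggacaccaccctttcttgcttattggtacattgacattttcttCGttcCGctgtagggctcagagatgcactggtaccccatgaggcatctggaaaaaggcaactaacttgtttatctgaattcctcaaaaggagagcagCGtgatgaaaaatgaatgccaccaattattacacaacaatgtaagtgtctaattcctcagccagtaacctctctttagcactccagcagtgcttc
Dnah7c encodes an axonemal dynein heavy chain and Akr1cl a member of the aldo-keto reductase family. The Gm28178 and Akr1cl stretches held no CG dinucleotide, the 4930503O07Rik stretch held 4 and the Dnah7c stretch held 6. The nearest peak of any of the other 8 lists lay 82.0 kb from the Dnah7c window, 16.7 kb from the Gm28178 window and 4.16 kb from the Akr1cl window. At 4930503O07Rik it lay 4 bp away, in the WT list, and R377C, R342C, H455R and R377H had peaks 75 to 113 bp away, so in those 5 lists the window was missed by the edge of a peak. In R339Q, S354F and Q418R the nearest peak lay 13.1 to 13.2 kb away.

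For contrast, 2 start sites of pluripotency regulators are shown, at which all 10 lists had a peak. Tfcp2l1 and Nr5a2 both encode transcription factors of the naive stem cell network.
Tfcp2l1, chr1:118627695-118627944, plus strand: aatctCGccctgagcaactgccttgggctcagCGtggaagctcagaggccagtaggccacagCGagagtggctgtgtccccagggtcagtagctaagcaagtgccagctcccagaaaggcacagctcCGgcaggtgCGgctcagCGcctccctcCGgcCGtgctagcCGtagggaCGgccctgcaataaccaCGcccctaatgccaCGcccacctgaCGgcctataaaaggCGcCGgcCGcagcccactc
Nr5a2, chr1:136953631-136953880, minus strand: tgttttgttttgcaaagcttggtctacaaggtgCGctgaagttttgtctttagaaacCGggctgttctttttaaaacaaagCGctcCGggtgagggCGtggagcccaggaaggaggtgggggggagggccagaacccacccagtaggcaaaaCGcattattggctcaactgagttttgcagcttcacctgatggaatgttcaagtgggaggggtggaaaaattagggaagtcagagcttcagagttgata
The Tfcp2l1 stretch held 16 CG dinucleotides and the Nr5a2 stretch 6. Across all chromosome 1 windows, those with a peak in all 10 lists (905) had a median of 20 CG dinucleotides and 61.3% GC, those with a peak in 1 to 9 lists (249) had 6 and 52%, and those with no peak (860) had 3 and 45.3%. By median, the windows with a peak in every list were thus richer in CG (quartiles 12 and 29), though some, such as Nr5a2, held few. Those that varied between lists (quartiles 3 and 10) lay near the chromosome 1 median of 6 CG dinucleotides. On the other chromosomes the medians of these 3 classes were similar, at 21, 6 and 3.

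The core of the CTCF motif, searched on both strands as CCA, any 2 bases, AG, any 2 bases and GGC, was in 2.44% of the promoter windows of all chromosomes and in 2.18% of those on chromosome 1. It was in 2.21% of the chromosome 1 windows with a peak in all lists, in 2.01% of those with a peak in 1 to 9 lists (5 of 249) and in 2.21% of those without a peak. On the other chromosomes, with many more windows, these shares were 2.83%, 3.24% and 1.90%. The 5 matches among windows with a peak in 1 to 9 lists are printed as 30-base stretches, in the direction of transcription and with the match in capitals, because they are the chromosome 1 start sites where a motif letter match and a difference between lists coincide.
Gm4319, chr1:72123836-72123865, minus strand: ggaggacggCCAGCAGATGGCagcagagac
Rufy4, chr1:74125296-74125325, plus strand: cccctttccGCCATCTACTGGcaacaagac
Kif1a, chr1:93101836-93101865, minus strand: gtcacagcaCCAGGAGCAGGCagtaagaag
Tsn, chr1:118310871-118310900, minus strand: ttaggttagGCCGCCTCTTGGttccggatt
Rgs8, chr1:153665606-153665635, plus strand: agctgagccGCCGCCTGCTGGgtgtaggct
At Gm4319 only R448Q had a peak, and the nearest peaks of the other 9 lists were at least 1365 bp away. The Rufy4 window had a peak in S354F, R377C and R448Q, and the peaks of the other 7 lists ended 317 to 367 bp from it. Rgs8, which encodes a regulator of G-protein signalling, had one in R339Q, R377C and R377H. Kif1a, an axonal transport motor, and Tsn, which encodes the nucleic acid-binding protein translin, had a window peak in every list except Q418R. At Kif1a a Q418R peak at percentile 55.4 ended 333 bp from the window. At Tsn the Q418R peak began 15 bp from the window and ranked at percentile 99.0 of its list, so the strong peak there was present in all lists.

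The share of a list's peaks that lay on chromosome 1 was raised in K365T and R448Q. It was 6.54% in WT (11226 of 171719 peaks), 7.62% in K365T (10640 of 139580) and 8.12% in R448Q (11809 of 145504). Their exact (Clopper-Pearson) 95% intervals, which cover counting error over peaks only, were 6.42% to 6.66% for WT, 7.48% to 7.76% for K365T and 7.98% to 8.26% for R448Q. Both counts came from shorter lists than WT, and the R448Q list nevertheless held more chromosome 1 peaks than the WT list.

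The other lists stood close together. Shares were 6.63% in R339Q, 6.57% in R342C, 6.54% in S354F, 6.62% in R377C, 6.56% in R377H and 6.54% in H455R. Q418R was above these at 6.92% (6.78% to 7.06%). Without Q418R, the 7 lists other than K365T and R448Q spanned 6.54% to 6.63%, so the intervals of the pair and of Q418R overlapped none of these values.

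Against the median of the other 9 lists, the chromosome 1 share was 1.16-fold in K365T (log2 0.22) and 1.24-fold in R448Q (log2 0.31). Q418R was at 0.08 and the remaining lists lay between -0.02 and 0.01 on the log2 scale. In Q418R chromosome 6 was at -0.30, and a low share of 1 chromosome lifts the shares of the others in that list. Among the 20 chromosomes ranked, chromosome 1 was the most raised in K365T. In R448Q it was the second, after chromosome 3 at 0.33 and before chromosome 8 at 0.23. Chromosome 11 was at 0.16 in K365T. Rises of this size were also seen on other chromosomes in other lists. Chromosome 11 was at 0.26 in R377H and chromosome 8 at 0.26 in H455R. The values given below for elsewhere include these chromosomes. By covered length the chromosome 1 share was 7.54% in K365T, 7.93% in R448Q and 6.47% in WT. The median chromosome 1 peak was 385 bp wide in K365T and 402 bp in R448Q, against 386 and 410 bp on their other chromosomes, so the peaks there were more numerous and not wider.

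**Figure D1:**
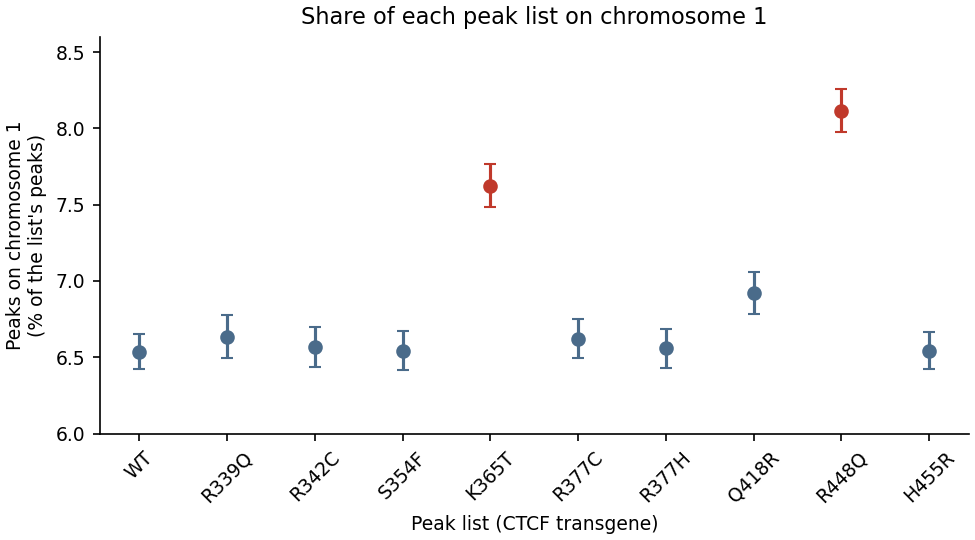
Share of each peak list that lies on chromosome 1 (y axis, % of the list's peaks) for the 10 CTCF transgenes (x axis); bars are exact 95% intervals for counting error over peaks and the axis starts above 0. K365T (7.62%) and R448Q (8.12%), in red, lie above the other 8 lists, which span 6.54% to 6.92%.

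The rise was present at every strength and largest among weak peaks. Each list was split into 5 groups of equal size by the authors' fold enrichment, which is a value of each peak within its own list. In the weakest group the chromosome 1 share was 7.69% in K365T and 8.58% in R448Q, against a median of 6.15% over the other 9 lists. In the strongest group it was 7.65% in K365T and 7.88% in R448Q, against 6.81%. On the log2 scale the difference therefore ran from 0.32 in the weakest to 0.17 in the strongest group of K365T, with the lowest value, 0.14, in the second strongest. In R448Q it ran from 0.48 to 0.21.

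The rise also ran along the whole chromosome. Chromosome 1 was cut into 40 bins of 5 Mb, of which 36 held a median of at least 50 peaks, and each bin's share of a list was set against the median of the other 9 lists. All 36 bins were positive in K365T, from 0.05 to 0.52 with a median of 0.21 (log2), and all 36 were positive in R448Q, from 0.10 to 0.64 with a median of 0.34. K365T and R448Q held the highest 2 values in 33 of the 36 bins, and R448Q was above K365T in 32. No bin therefore carried the difference alone. The number of chromosome 1 copies in each line was not tested.

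Bins above 0.2 on the log2 scale numbered 29 of 36 in R448Q, beside 17.8% of the bins of all chromosomes in that list, and 19 of 36 in K365T, beside 6.07%. In 18 bins both were above. Q418R had 5 such bins (6.07% over all chromosomes) and H455R had 1 (4.66%). WT, R339Q, R342C, S354F, R377C and R377H had 0 on chromosome 1, beside 1.01%, 0.607%, 0.405%, 0%, 0% and 4.25% over all chromosomes. Bins below -0.2 were 2 in R342C (1.01%), 1 in S354F (1.01%), 1 in R377C (1.42%), 1 in R377H (1.01%) and 1 in H455R (1.62%), and there were 0 in the other 5 lists, beside 1.21% in WT, 0.405% in R339Q, 5.06% in K365T, 6.88% in Q418R and 4.45% in R448Q.

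**Figure D2:**
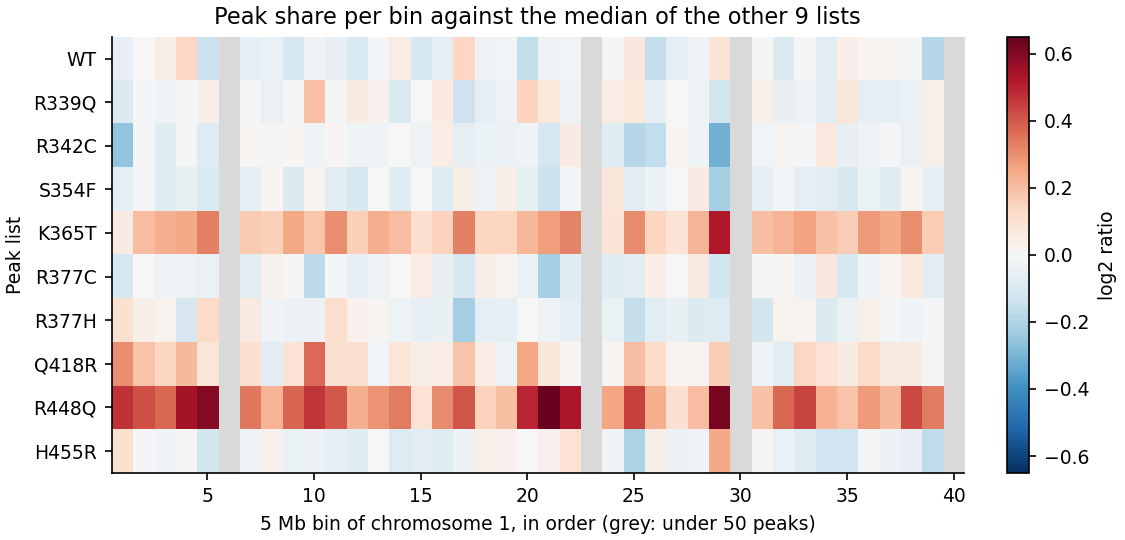
Peak share in each 5 Mb bin of chromosome 1 (x axis, bins in order; grey bins held a median under 50 peaks) for each list (y axis), as the log2 ratio to the median of the other 9 lists (colour). The K365T and R448Q rows are red along the whole chromosome, with medians of 0.21 and 0.34.

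The difference was larger where peaks were sparse. In the bin from 140000001 to 145000000 the lists held 71 peaks in WT, 46 in R339Q, 47 in R342C, 50 in S354F, 78 in K365T, 57 in R377C, 57 in R377H, 57 in Q418R, 87 in R448Q and 74 in H455R, and its log2 ratio was 0.52 in K365T and 0.62 in R448Q. The densest bin in this comparison, from 130000001 to 135000000, held 774 peaks in WT, 698 in K365T and 733 in R448Q, with ratios of 0.09 and 0.10. Over the 13 bins with a median under 200 peaks the median ratio was 0.25 in K365T and 0.47 in R448Q, and over the 13 bins with at least 300 peaks it was 0.16 and 0.20. Across the 36 bins, which share lists and are not replicates, the ratio and the log2 of the median peak number had a Pearson correlation of -0.85 in R448Q and -0.39 in K365T. At the start of the chromosome the lists parted, with 82 peaks and a ratio of 0.47 in R448Q against 59 peaks and 0.05 in K365T in the first bin.

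Sites common to all genotypes were a large class. Of the 15640 regions 5553 (35.5%) were in all 10 lists, beside 36.5% of all regions on any chromosome. Regions of a single list were 3031 (19.4%), beside 18.2%. The chromosome therefore held close to the usual mix of common and single-list sites, and the differences were in which lists held the rest. R448Q alone held 1046 regions (3.04% over all chromosomes) and K365T alone 345 (1.08%). WT alone held 479 (4.19%), H455R 358 (3.14%), R377H 176 (1.72%), Q418R 173 (1.31%), R377C 150 (1.18%), R342C 143 (1.1%), S354F 99 (0.961%) and R339Q 62 (0.498%). R448Q thus held the most here, while WT and H455R held the most over all chromosomes. Of all regions that R448Q alone held, 15.4% lay on chromosome 1, and of those K365T alone held 14.4%, against 4.59% to 5.94% in the other 8 lists.

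Common sites were described by rank. Ranks are percentiles of the authors' fold enrichment within a list, 100 being the strongest peak. The region 12.7 kb from Kif1a (chr1:93114776-93115507) had the highest mean percentile over the lists. It was followed by gene-end regions of Desi2 (a deSUMOylating isopeptidase), Ppp1r12b (a regulatory subunit of myosin phosphatase) and Atg9a (a membrane protein of autophagosome formation), and by a region 21.1 kb from Pou2f1, which encodes the transcription factor Oct-1. These 5 were chosen for their high mean, which leaves the lists little room to differ.

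The sites with the widest range of ranks were chosen for that range. Inside Nckap5 a region ran from percentile 12.2 in R377H to 96.8 in Q418R, and inside 1700025G04Rik one ran from 5.44 in WT to 88.6 in K365T. A region 8.68 kb from Capn8, which encodes a calpain protease, ran from 6.74 in Q418R to 87.9 in R377C. Inside Xpr1, which encodes a phosphate exporter, the lowest was 14.2 in H455R and the highest 93.9 in R448Q. The highest and lowest lists differed from site to site.

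Over the 5553 regions in all lists, chromosome 1 sites ranked higher than the 75598 common sites elsewhere in the same 2 lists. Their median percentile was 72.3 in K365T against 69.4 elsewhere and 72.6 in R448Q against 69.7, a difference of 2.91 points in both. Q418R had 1.76 points, and WT and H455R had 0. R339Q, R342C, S354F, R377C and R377H lay between -1.09 and -0.12 points. Of the 20 chromosomes, chromosome 1 was the second highest in K365T by this measure and the third highest in R448Q. Set against the same site in the other lists, the difference was smaller. The median difference from the other lists was -0.07 points on chromosome 1 and -0.77 elsewhere in K365T, and 0.13 and -0.63 in R448Q. Chromosome 1 sites ranked above the other lists in 49.3% of cases in K365T, against 43.7% elsewhere, and in 51.2% in R448Q, against 45.2%.

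The regions that K365T and R448Q shared beyond all other lists numbered 205 on chromosome 1, which is 1.31% of its regions, beside 0.411% of the regions of all chromosomes and 710 of the 206817 regions elsewhere (0.343%). They made up 2.05% of the chromosome 1 regions of K365T and 1.80% of those of R448Q, against 0.595% and 0.558% of their regions elsewhere. Among the 45 pairs of lists this was the highest count of regions found in exactly that pair. The next was WT with H455R at 107, then R377H with R448Q at 88 and WT with R448Q at 81.

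Chromosome 1 held 22.4% of the regions found only in K365T and R448Q on all chromosomes. Over the 28 pairs with neither of these lists, it held 1.65% to 8.14% of the pair's own regions, with a median of 4.37%. For pairs with just 1 of these lists the share ran from 7.21% in K365T with R377H to 16.8% in R342C with R448Q and 20.4% in R339Q with K365T, where it rests on 11 regions. Chromosome 3 was next for the K365T and R448Q pair by share of its regions, at 1.03% (115 regions). WT with H455R had 2533 of its own regions elsewhere and 4.05% of its total on chromosome 1. With every list cut to the length of the shortest, K365T and R448Q had 229 regions of their own on chromosome 1 and 822 elsewhere, and WT with H455R had 40 and 760, so the pair's count was then the highest of the 45 pairs elsewhere too.

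**Figure D3:**
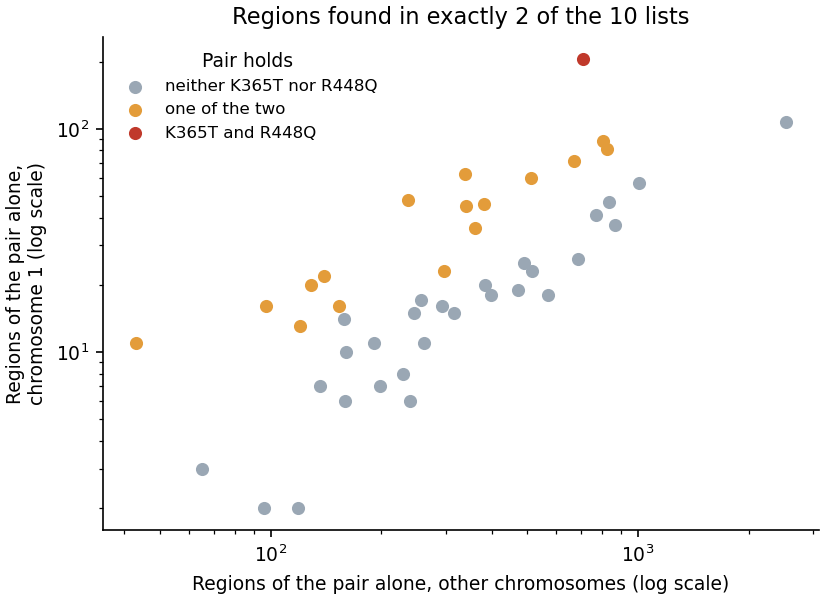
Regions found in exactly 2 of the 10 lists, for each of the 45 pairs: the number on chromosome 1 (y axis, log scale) against the number on the other chromosomes (x axis, log scale). The pair K365T and R448Q, in red, has 205 on chromosome 1 with 710 elsewhere, and the next highest pair has 107 with 2533 elsewhere.

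The 205 regions were spread over 38 of the 40 bins of the chromosome, with 0 to 10 in each bin of at least 50 peaks. Of them 121 (59.0%) were intergenic, 77 (37.6%) inside a protein-coding gene and 7 (3.41%) within 1 kb of a gene end. For all chromosome 1 regions these shares were 43.0%, 47.8% and 9.19%. The other pairs of lists together had 1248 such regions on chromosome 1, of which 45.0% were intergenic, 51.0% inside a gene and 4.09% at a gene end. An intergenic region of the K365T and R448Q set lay at a median of 75.4 kb from the nearest gene end, and one of the other pairs at 31.3 kb. The pair's own regions on other chromosomes were 51.7% intergenic, at a median of 39.3 kb. Intergenic chromosome 1 regions of a single list lay at a median of 43.7 kb. Chromosome 1 regions of R448Q alone were 53.1% intergenic, at a median of 62.3 kb, and those of K365T alone 41.4%, at 55.9 kb, so long distances were also seen in the regions that either list held alone. The median merged width was 287 bp in the K365T and R448Q set and 289.5 bp in the other pairs.

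These were mostly weak peaks. Their median percentile was 29.5 in K365T and 36.5 in R448Q, and 15 of the 205 were above the 50th percentile in both lists. On other chromosomes the medians of the pair's own regions were 24.2 and 33.4, and 28 of 710 were above the 50th in both.

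The strongest by the mean of both percentiles lay inside Rgs7 (chr1:175329997-175330295), a gene for a regulator of G-protein signalling in neurons, at percentile 63.2 in K365T and 89.2 in R448Q. The region next in strength lay inside Nemp2, a gene for a nuclear envelope membrane protein, at 61.1 and 80.6, and it covers the start site of Gm28178 whose sequence without CG dinucleotides is printed above. A region 19 kb from Serpinb2, a protease inhibitor gene, was at 65.2 and 76.4, and one 86.4 kb from Kctd3 at 70.9 and 69.6. Inside F5, the gene for coagulation factor V, a region was at 68.8 and 67.1. All 5 were above the median peak in both lists.

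The next 5 lay 861 kb from Cdc73 (a subunit of the PAF1 transcription elongation complex), 48.7 kb from Pld5, 135 kb from Ptprc (the leukocyte phosphatase CD45), 14.2 kb from Dedd and inside Pappa2 (a protease that cleaves insulin-like growth factor-binding proteins). Their percentiles ran from 39.1 to 61.1 in K365T and from 63.6 to 81.2 in R448Q. Of these 10 regions, 4 lay inside a gene (Rgs7, Nemp2, F5 and Pappa2) and the others between genes, where the nearest gene is a label of position only.

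Gene-end regions of the set were 7. The Serpinb13 region was at percentile 50.4 in K365T and 62.4 in R448Q, and Dnah7c, shown above, was at 29.5 and 66.0. Jph1 (a junctophilin that ties the plasma membrane to the endoplasmic reticulum) was at 39.1 and 33.4, and Mr1 (an MHC class I-related antigen-presenting molecule) at 18.9 and 45.8. Akr1cl, shown above, was at 17.6 and 24.8. Vps4b (an ATPase of the ESCRT machinery) and Dst (the cytoskeletal linker dystonin) were at 25.8 and 15.7 in K365T and at 6.54 and 5.30 in R448Q. Serpinb13 and Dnah7c were the protein-coding genes of chromosome 1 whose gene ends had a peak in this pair of lists alone, while the other 5 genes had another gene-end peak in further lists. A peak just inside or outside the 1 kb limit can make or miss such a call.

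The raised share was also described at sites that other lists had. Regions in K365T and R448Q but not in WT were 853 on chromosome 1 (5.45%), beside 2.54% over all chromosomes and 2.32% elsewhere. Regions were grouped by how many of the other 8 lists held them, which does not use K365T or R448Q. Of chromosome 1 regions in 1 of the 8 lists, 9.87% were in both K365T and R448Q, against 3.28% elsewhere. Of those in 4 of the 8 lists it was 41.0% against 22.3%, and of those in 7 it was 78.1% against 63.2%.

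At the far end, regions in all 8 other lists were in both K365T and R448Q in 97.2% of cases on chromosome 1 and 94.4% elsewhere. Missing from both though in all 8 others were 17 of 5711 chromosome 1 regions (0.298%), beside 0.924% over all chromosomes and 0.968% elsewhere. At every recurrence from 1 to 8 lists, the exact 95% intervals of chromosome 1 and of the other chromosomes did not overlap. These intervals cover counting error over regions only and are no test. K365T and R448Q were set apart with their raised chromosome 1 share known. The values therefore describe that rise again and are not further support for it.

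**Figure D4:**
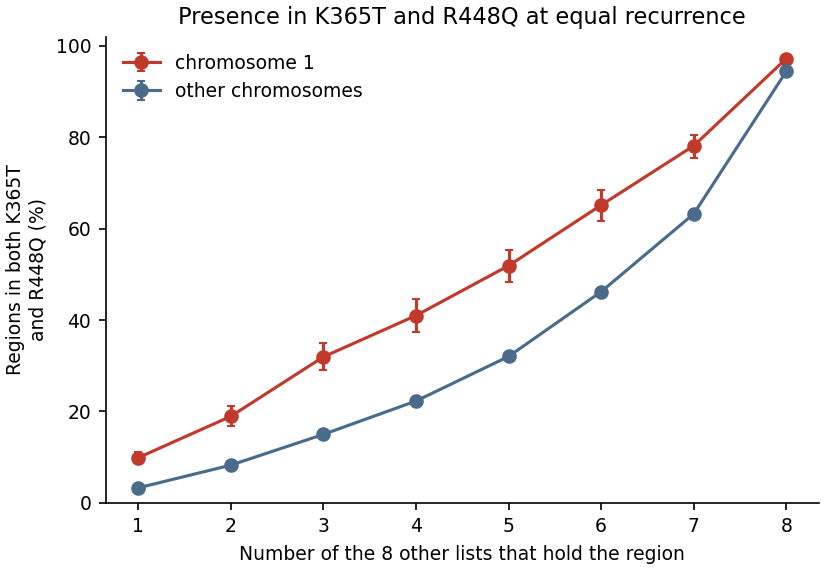
Percent of regions found in both K365T and R448Q (y axis) by the number of the other 8 lists that hold the region (x axis), for chromosome 1 (red) and all other chromosomes (blue); bars are exact 95% intervals for counting error. Chromosome 1 is above at each step, for example 41.0% against 22.3% at 4 lists.

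Of the sites missing from 1 list alone, the share on chromosome 1 was lowest in R448Q and K365T, though their counts were not the lowest. R448Q alone missed 56 chromosome 1 regions (0.879% over all chromosomes) and K365T alone 85 (0.836%). These were 2.86% and 4.57% of what each list alone missed anywhere, against 6.32% to 10.8% in the other 8 lists. WT alone missed 13 (0.0877%), R377C 24 (0.114%), H455R 64 (0.301%), S354F 68 (0.34%), R342C 87 (0.361%), R377H 90 (0.376%), Q418R 211 (1.5%) and R339Q 294 (1.64%), where each percent is the share over all chromosomes. The list with the fewest peaks, R339Q, missed the most.

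The strongest region missing from K365T alone lay 126 kb from Crygf, a lens crystallin gene, at a mean percentile of 69.6 in the other lists, with the highest value, 91.1, in R377H. For R448Q it lay inside Rxrg, the gene for a retinoid X receptor, at a mean of 67.4. The region missing from R339Q alone, 226 kb from Brinp2, had the highest mean of these at 81.8, and the one missing from S354F, inside Gm28802, had 81.1. R342C lacked a region 114 kb from Twist2, a mesodermal transcription factor gene, at 74.6. Q418R lacked one inside Spata17 at 73.8, R377H one inside Ptpn14 at 72.1 and H455R one inside Nav1 at 71.5. R377C lacked a region 6.76 kb from Pigm at 60.1 and WT one 30.6 kb from Col6a3 at 59.4. Each list thus lacked some site of more than median strength.

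The strongest site of a single list was also located. In R448Q it lay 0.06 kb from an end of Plxna2, a semaphorin receptor gene, in Q418R 387 kb from Plekhb2, and in K365T inside Golt1a. In WT it lay at an end of Retreg2, a receptor gene of endoplasmic reticulum turnover.

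WT peaks were followed into each mutant list. Of the 11226 WT peaks on chromosome 1, R448Q held 81.4%, H455R 80.6%, R377C 79.1%, K365T 79.0%, S354F 75.7%, R342C 74.1%, R377H 74.1%, Q418R 72.4% and R339Q 65.4%, where found means an overlap of at least 1 bp. Over all chromosomes 27.7% of WT peaks were missing from R448Q, 19.3% from H455R, 20.9% from R377C, 28.3% from K365T, 24.3% from S354F, 26.1% from R342C, 26% from R377H, 30.8% from Q418R and 35.1% from R339Q. R448Q was first by this measure on chromosome 1 although H455R, R377C, S354F, R377H and R342C missed fewer WT peaks overall.

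WT peaks elsewhere were then weighted to the strength of those on chromosome 1. Chromosome 1 peaks were found more often than these by 8.72 percentage points in R448Q (81.4% against 72.7%) and by 6.60 points in K365T (79.0% against 72.3%). In Q418R the difference was 2.34 points. In the other 6 mutants it was negative, from -1.04 in S354F to -0.61 in R339Q. All 9 comparisons share the WT list. Of the weakest 20% of WT peaks on chromosome 1, K365T missed 51.7% and R448Q 43.5%, against 63.2% and 57.1% elsewhere. Of the strongest 20%, K365T missed 2 of 2355 (0.085%, against 0.319% elsewhere) and R448Q 6 (0.255%, against 0.938%). In percentage points the difference therefore lay mostly among weak WT peaks, since strong ones were almost all found. In proportion, strong peaks too were missed less often on chromosome 1 than elsewhere in both lists, but this also held in every other mutant list. For example, it was 0.127% against 0.428% in Q418R and 0.255% against 0.278% in R377H.

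Peaks without a WT overlap were 23.4% of the R448Q chromosome 1 peaks (2761 of 11809; 14.8% over all chromosomes) and 14.9% of those of K365T (1587 of 10640; 8.94%). On the other chromosomes these shares were 14.0% and 8.45%. In the other 7 mutants the chromosome 1 share ran from 7.68% in R339Q (7.14% over all chromosomes) to 13.2% in H455R (13.1%). Between these lay S354F at 8.72% (8.82%), Q418R at 9.49% (7.97%), R342C at 10.0% (9.77%), R377C at 11.6% (10.8%) and R377H at 12.3% (12.1%). K365T and R448Q therefore both kept more WT sites and added more new ones on this chromosome than elsewhere. Q418R did both as well, by less, with 9.49% of its peaks new on chromosome 1 against 7.86% on the other chromosomes. The share of new peaks was also higher on chromosome 1 in the remaining mutants, by small margins, except in S354F (8.72% against 8.82%).

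**Figure D5:**
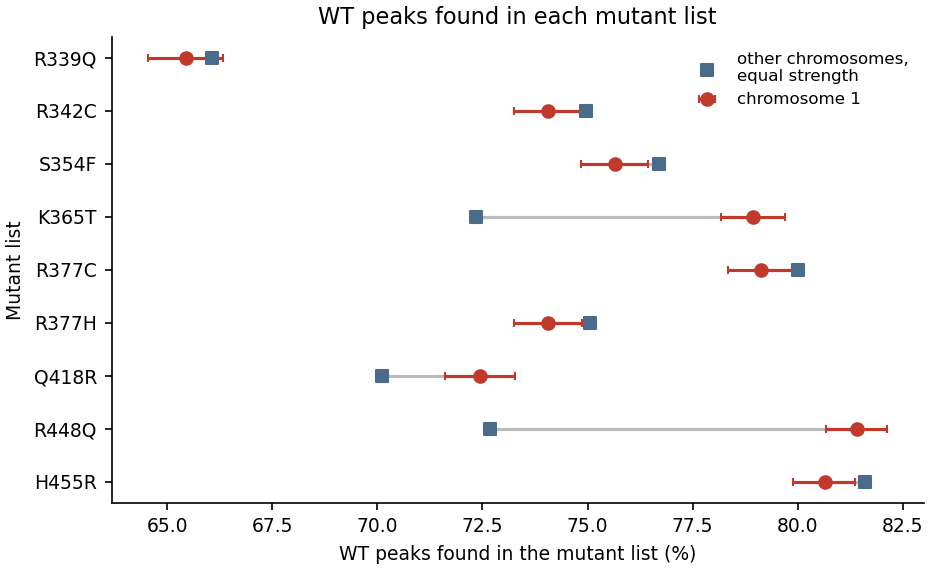
Percent of WT peaks found in each mutant list (x axis; mutants on the y axis) for chromosome 1 (red circles, exact 95% intervals) and for other chromosomes at equal WT strength (blue squares). The red point lies to the right in R448Q (81.4% against 72.7%), K365T (79.0% against 72.3%) and Q418R (72.4% against 70.1%), and to the left in the other 6 mutants.

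Most gene ends on chromosome 1 had a peak in every list. Of 1204 protein-coding genes, 837 (69.5%) had a peak within 1 kb of either annotated end in all 10 lists, beside 65.5% over all chromosomes, and 123 (10.2%) had one in 1 to 9 lists, beside 9.19%. The gene lists below were chosen with earlier results known and are given by their counts.

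Of 9 pluripotency genes of the chromosome, 7 had a gene-end peak in all lists. Klf7 (a Krüppel-like factor) was at percentile 94.9 to 97.6 and the Wnt receptor gene Fzd7 at 92.5 to 97.1. Tfcp2l1 varied more, from 29.9 in Q418R to 65.2 in H455R, and Prdm14, which encodes a repressor of lineage genes in naive cells, from 48.7 in K365T to 68.3 in R339Q. Lefty2, which encodes an inhibitor of Nodal signalling, had a gene-end peak in 7 lists, at 48.6 to 73.2, and none in K365T, R377H and Q418R, while its neighbour Lefty1 had one in all 10, at 58.4 to 78.2. Nr5a2 had a gene-end peak in R342C only, although the start site printed above lies inside the gene and had a peak in every list.

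Of 26 lineage regulators, 16 had a gene-end peak in all lists, 8 in some and 2 in none. The number with one was 23 in K365T and R448Q, 22 in WT and Q418R, 18 in R342C, 16 in R339Q and 21 in the other 4 lists. Over all 1204 protein-coding genes of the chromosome the share was 75.7% in K365T, 76.6% in R448Q and 75.7% in WT. It was 74.5% in Q418R, 73.8% in R342C, 71.8% in R339Q and 73.8% to 75.1% in the other 4. R339Q was thus lowest by both measures. Sox17, an endoderm regulator, lacked one in R339Q and R342C and was at 2.21 in R377H and 53.6 to 66.6 in the other 7. Tfap2b, a neural crest factor, had one in R377C (12.4), R377H (50.1), Q418R (51.6) and R448Q (62.8). Lhx4, a pituitary and motor neuron factor, had one in K365T only, at 18.9. Gli2, a transcription factor of Hedgehog signalling, had a weak one in 8 lists, at 0.344 to 16.1.

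Among 17 chromatin and replication genes 16 had a gene-end peak in all lists and Sp100, a nuclear body protein gene, in none. The helicase subunit genes Mcm3 and Mcm6 were at means of 99.7 and 96.1 and Cenpf, a kinetochore gene, at 97.4, while Kdm5b, a histone demethylase gene, was at 9.4. All 15 housekeeping genes had one in all lists, from Psmd1 (a proteasome subunit) at a mean of 50.4 to Cops8 (a signalosome subunit) at 99.1. The imprinted neighbours Zdbf2 and Gpr1 had one in all lists too.

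Clustered gene families of the chromosome mostly lacked gene-end peaks. No list had a gene-end peak at 23 of 27 olfactory receptor genes, 9 of 12 Serpinb protease inhibitor genes, 8 of 9 Ugt1a glucuronosyltransferase genes, 7 of 8 interferon-inducible Ifi20 genes or 1 of 3 Fcgr receptor genes. Serpinb5 and Serpinb8 had one in all lists, at means of 72.1 and 81.9, and so did Olfr1411 at 75.9. The remaining members had a peak in 1 to 7 lists, with Olfr418 in K365T only and Fcgr4 in H455R only. Cluster genes share sequence, and the sources used here do not say how reads that map to several of them were treated.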

How the data were processed

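Omni-ATAC-seq was run on 20 samples, with 50000 cells per reaction and reads of 150 bp, per the labels' protocols. Trim Galore, Bowtie2, MACS2, deepTools and build mm10 appear in the submitters' processing notes. The sources used here give neither versions nor the shift of reads, the treatment of duplicates or the threshold of calling. The authors deposited 1 pooled peak list per genotype. Its last value, which the authors deposited without a header, was taken by its range and steps to be MACS2 fold enrichment, a ratio of observed to expected coverage. It served only to rank or filter peaks within a list.

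Peaks were merged at an overlap of at least 1 bp and placed by a RefSeq gene table of GRCm38.p6, with gene ends as 1 kb on each side of an annotated end of a protein-coding gene, without strand. Bins of 5 Mb were used where they held a median of at least 50 peaks. WT peaks were weighted over 20 bins of strength. Background coverage is 1/step minus 1, with the step found within 1.1e-05. Promoter windows hold 250 bases before and 50 after a start, and 988 of the 1204 protein-coding genes of chromosome 1 had at least 1.

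With 1 list per genotype there was no test, and exact Clopper-Pearson 95% intervals cover counting error only. Named sites were the 5 strongest and the 5 most variable common regions, the 10 strongest regions of K365T and R448Q only, those at gene ends, and per list the strongest region missing from it alone or found in it alone (4 of the latter are named), besides members of gene lists. A few sites and genes that these rules name are not reported here. Members and lists were chosen with earlier results of these data known. Scripts were tested on simulated peaks. Python 3.11.15, numpy 2.4.6, pandas 2.3.3, scipy 1.17.1 and matplotlib 3.10.9 were used.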

Additional observations from a re-analysis of the deposited data

How the results depend on the processing

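Lists cut to the strongest 121032 peaks, the stronger 50% of peaks, covered length, other denominators, 10 Mb bins, WT as reference and stricter overlaps were tried. Of 95 alternative values 78 stayed close to the reported ones, 17 moved, and 0 turned the direction of a result read as a difference. Close meant inside the 95% interval for shares and WT peaks found, and within a fixed factor otherwise. Bin percents and region counts could not be labelled as turned. Ranking among common sites only gave 4.28 points in both K365T and R448Q, which counted as close. So did R448Q bins above 0.2 at equal list size, at 65.7%. The log2 shares of WT, R339Q, R377C, R377H and H455R, all within 0.02 of 0, changed sign in at least 1 setting. The log2 chromosome 1 share moved at equal list size to 0.0092 in WT, -0.028 in R339Q and 0.26 in R448Q. In the stronger 50% it was 0.16 in K365T, -0.019 in R377C and 0.24 in R448Q. Leaving chromosomes 3, 8, 11 and 17 out of the denominator gave R448Q 0.34, and leaving out chromosome 6 too, an alternative added after seeing the data, also gave 0.34. Q418R, at 0.076 in the main setting, was at 0.072 without chromosomes 3, 8, 11 and 17. Without chromosome 6 as well it was at 0.047. Bins above 0.2 in Q418R were 13.9% of 36 and became 5% with 10 Mb bins and 8.57% at equal list size. Regions of K365T and R448Q only fell from 205 to 15 when limited to the stronger 50% of both lists, the other settings giving 189 and 229. For WT peaks found, chromosome 1 minus elsewhere was 7.51 points in K365T and 9.69 in R448Q at an overlap of 50% of the WT peak, 2.53 and 4.08 for the stronger 50% of WT peaks, and 4.81 and 6.44 at equal list size. The cause was not tested. No paired analysis was possible because each genotype has 1 pooled list, and leaving out a replicate could not be run for the same reason. Depth limits the weak sites: a site missing from a list was not called at that depth and is not shown to be closed.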
